A study of Mus musculus with 6 samples.

Results

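The 10 genes described here encode the ID proteins ID1 to ID4 together with ligands, receptors, an antagonist and a proteinase of BMP and activin signalling. They were chosen by symbol (Id1, Id2, Id3, Id4, Bmp4, Bmp1, Bmpr1a, Bmpr2, Inhba and Grem1), and all 10 were found among the 22375 rows of the deposited table. The cells were C2C12, an established line of mouse myoblasts, grown in medium with fetal bovine serum on elastic plates coated with poly-lysine. The CON group was not stretched, and the 4H group was stretched cyclically at a tension of 15% for 4 h. Each group has 3 libraries of poly(A) RNA, numbered by the replicate numbers in the sample descriptions. The library names carry other numbers: replicates 1, 2 and 3 of the 4H group are the libraries named 4H1, 4H3 and 4H4, and those of CON are C1, C2 and C3. The labels do not say whether the replicates were separate cultures, so the p-values measure the spread between these libraries. C2C12 is a single immortal line, and only 1 stretch time was compared here.

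BMPs and activins are secreted dimers of the TGF-beta superfamily. A dimer brings together type I and type II receptor kinases at the cell surface, and the activated type I receptor phosphorylates SMAD proteins, of the SMAD1/5/9 branch for BMPs and of the SMAD2/3 branch for activins. Genes of the ID proteins are classical direct targets of the BMP branch. An ID protein has a helix-loop-helix domain but no DNA-binding region. It binds E proteins and so keeps them from pairing with myogenic factors such as MYOD1, which is why ID proteins are known as inhibitors of muscle differentiation.

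The values are FPKM, fragments scaled by transcript length and by the mapped fragments of the library, which allow levels to be compared between genes. FPKM summed to 395790 to 397260 per CON library and to 385146 to 387516 per 4H library, and FPKM does not hold the number of reads, so the depth is unknown. The mean over the 6 libraries reached 0.5 FPKM for 11593 genes, and only these were tested. For each, log2(FPKM + 0.5) was compared between the groups by a two-sided limma test, and p-values were adjusted over all of them by the Benjamini-Hochberg method. Fold changes refer to that scale, so those of scarce transcripts come out too small. Of the myoblast markers, Myod1, Myf5, Des, Cdh15 and Chrna1 passed the filter and Pax7 did not, and none of 6 markers of differentiated muscle passed it. The summed myoblast list was 120.8 to 121.8 FPKM in the CON libraries and 160.2 to 168.4 FPKM in the 4H libraries. Among markers of other cells, Ptprc, Tyrobp, Epcam and Plin1 were listed at 0 in all 6 libraries. The summed fibroblast list of 5 genes, 2 of which passed the filter (Pdgfra and Dcn), was 3.74 to 4.19 FPKM in CON and 5.999 to 7.63 FPKM in 4H. The leukocyte list of 5 genes, 1 of which passed it (Cd68), was 6.73 to 8.51 FPKM in CON and 15.0 to 17.6 FPKM in 4H. The summed lists of differentiated muscle, endothelial, adipocyte and epithelial cells reached at most 0.691, 0.112, 0 and 0.148 FPKM in CON and 0.806, 0.261, 0.137 and 0.826 FPKM in 4H. The part of these markers in the results below was not tested. In bulk RNA, a change in the share of cells that express a gene and a change in RNA per cell cannot be told apart.

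Stretched myoblasts held more transcript of Id1, Id2, Id3 and Inhba and less of Grem1. Of the 10 genes, 9 passed the filter. At an adjusted p of at most 0.05, 6 of these 9 rose (Id1, Id2, Id3, Inhba, Bmpr2 and Bmp1) and 2 fell (Grem1 and Bmp4), while Bmpr1a did not pass. The same threshold called 46.7% of all genes tested, 22.6% higher and 24.1% lower, so that a call by itself does not set these genes apart. That balance turned with no filter (2967 genes higher and 2598 lower), after rescaling to TPM (3140 and 2334), without CON replicate 2 (2406 and 2398) and without CON replicate 3 (2342 and 2296), beside 2617 higher and 2792 lower as reported. The log2 fold change reached 1 as well in 3 of the 9 genes, Inhba, Id1 and Id2, all higher in the 4H group. Both thresholds together, which are those of the study, called 3.88% of all genes tested, 2.61% higher and 1.28% lower. The median log2 fold change of the 9 genes was 0.30, beside -0.01 over all genes tested. The groups did not overlap in 8 of the 9 (6 higher and 2 lower), beside 56.7% of all genes tested (27.5% higher and 29.2% lower).

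**Figure D1:**
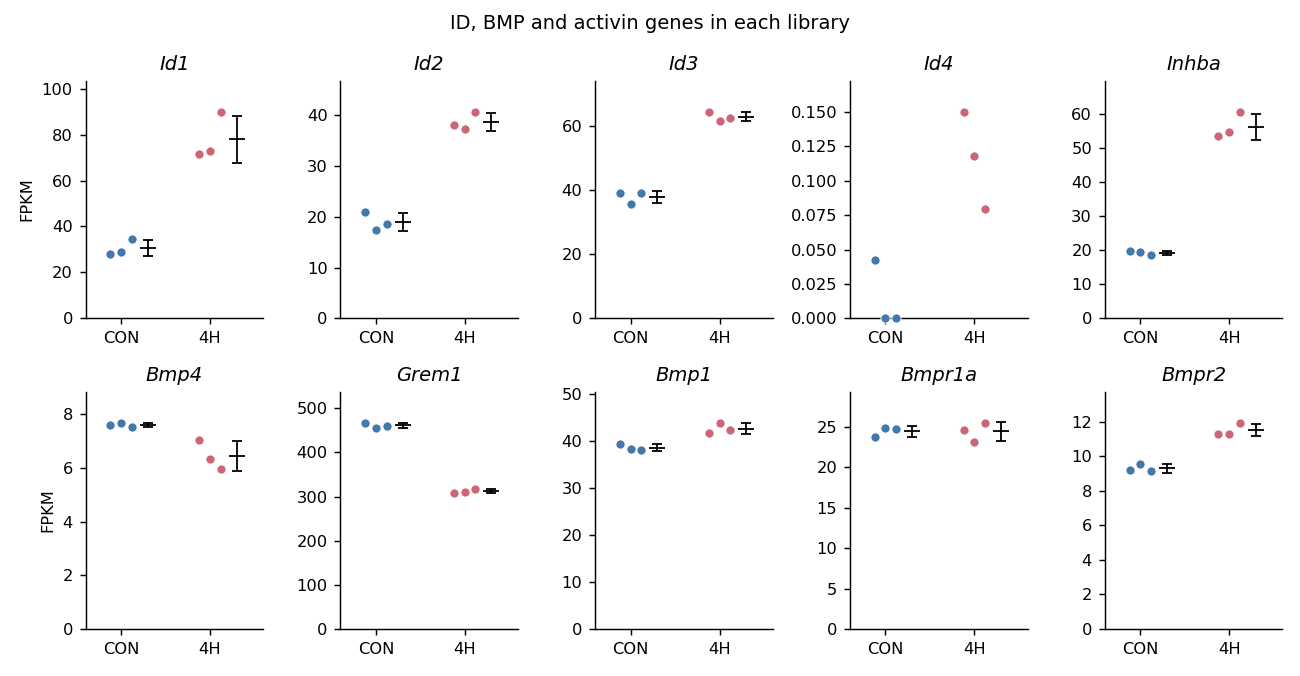
FPKM of the 10 genes in each library, with a panel and a vertical scale per gene that starts at 0. Points are libraries in the order of replicates 1 to 3, and black bars give the mean and SD of 3 libraries (left out for Id4, which has values of 0). The 4H libraries lie above all CON libraries in Id1, Id2, Id3, Id4, Inhba, Bmp1 and Bmpr2 and below them in Grem1 and Bmp4.

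Of the 3 ID genes tested, Id1 had the largest log2 fold change, with a 95% confidence interval (1.11 to 1.58) that overlaps that of Id2 (0.85 to 1.17), and their difference was not tested. It encodes the ID protein most often used as a readout of BMP signalling. Its FPKM was 28.02, 28.9 and 34.4 in the CON libraries and 71.7, 72.7 and 89.9 in the 4H libraries. The highest CON library, replicate 3, lay below the lowest 4H library, and 4H replicate 3 stood above the other two stretched libraries. The means were 30.5 ± 3.47 and 78.1 ± 10.2 FPKM (SD, n = 3 each). Its log2 fold change of 1.34 had a standard error of 0.10 (limma adjusted p = 2.09e-05). Without 4H replicate 3 the log2 fold change of Id1 was 1.24. In the CON group Id1 was above 78.0% of the genes tested, and in the 4H group above 93.0%. Id1 lies at chr2:152736251-152737410 on the plus strand of GRCm38 in the GENCODE M21 annotation, and no other annotated gene shares its exons.

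Id2, the second member of the family, was at 21.0, 17.4 and 18.5 FPKM without stretch and at 38.1, 37.3 and 40.7 FPKM after it. The groups did not overlap. Its log2 fold change was 1.01 (standard error 0.07, limma adjusted p = 1.13e-05), which lies at the fold threshold. It was 0.95 without CON replicate 2, 0.996 without CON replicate 3, 0.98 without 4H replicate 3 and 0.99 with a pseudocount of 1, each with an adjusted p below 0.05. Id3 was at 38.9, 35.6 and 39.0 FPKM in CON and at 64.3, 61.6 and 62.6 FPKM in 4H. Its spread was small, and its log2 fold change was 0.73 (standard error 0.04, limma adjusted p = 5.75e-06), below the fold threshold. Id2 lies at chr12:25093799-25097140 on the minus strand and Id3 at chr4:136143497-136145755 on the plus strand.

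Id4 was almost absent from both groups. It was listed at 0 in CON replicates 2 and 3, at 0.0424 FPKM in CON replicate 1, and, after stretch, at 0.150, 0.118 and 0.0792 FPKM. All 4H libraries were higher than all CON libraries (two-sided exact permutation test, p = 0.1, the smallest that 3 libraries against 3 can give). Id4 did not pass the filter, and 2 genes on the other strand share exon positions with it, so it is not counted among the genes that rose.

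The upstream bases of Id2 and Id3 are shown because both genes rose and because 2 short motifs of SMAD proteins can be looked up in them. The sequences are from RefSeq on GRCm38.p6, whose table held 8 of the 10 genes, all but Id1 and Bmp1. The 250 bases before each start were searched on both strands for GGCGCC, a GC-rich element of BMP-responsive genes, and for CAGAC, the core of the SMAD binding element, which reads GTCTG on the other strand. The motifs do not overlap in the windows shown. Matches are in capitals, each sequence runs 5′ to 3′ on the strand of the gene, and stretches that are exonic in another transcript of GENCODE M21 are left out or limited to 25 bases. All 250 bases of the Id3 window lie in Id3 exons of that annotation, so both Id3 matches shown are exonic there. The Bmpr2 window likewise lies wholly in Bmpr2 exons. The first line is the minus strand of chr12:25096254-25096342, from 250 to 162 bases before the start, and the others are the plus strand of chr4:136143645-136143669 and chr4:136143744-136143768.
Id2: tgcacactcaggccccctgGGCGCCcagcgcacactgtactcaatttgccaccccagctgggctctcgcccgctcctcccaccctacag
Id3, first match: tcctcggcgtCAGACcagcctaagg
Id3, second match: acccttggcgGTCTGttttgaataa
Among the 32851 windows of the table, 9.59% held GGCGCC and 42.19% held CAGAC. The windows of Id2, Id4, Bmpr1a, Bmpr2 and Grem1 held GGCGCC, and those of Id3 and Grem1 held CAGAC. The windows with GGCGCC held 62.8%, 75.6%, 78.8%, 64.0% and 72.0% G and C in that order, above the median of 52.4% over all windows. The windows without it were those of Id3 (62.8%), Bmp4 (63.2%) and Inhba (43.2%). GGCGCC is made of G and C only, so the share over all windows is not one over windows of like composition. Genes that rose, that fell and that did not pass the test were thus all among the genes with a match, which is a description of letters in a window.

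Id1 made up a larger share of the ID transcripts in the 4H libraries than in the CON libraries. The summed FPKM of Id1 to Id4 was 87.98, 81.9 and 91.9 in the CON libraries and 174.3, 171.7 and 193.2 in the 4H libraries. Id1 made up 34.9 ± 2.84% of this sum in CON and 43.3 ± 2.83% in 4H (SD, n = 3 each), from 31.9% to 37.5% in CON and from 41.2% to 46.5% in 4H. The share of Id3 was 43.4 ± 0.93% in CON and 35.0 ± 2.37% in 4H, and its ranges did not overlap. Id2 held 21.8 ± 1.90% and 21.5 ± 0.43%, with ranges that overlap. Id3 was therefore the most abundant ID transcript in every CON library and Id1 in every 4H library. These shares were examined after the values had been seen and are given without a test.

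E proteins are the partners that ID proteins bind, and their genes fell slightly. Tcf3, which encodes E12 and E47, was at 45.9, 46.5 and 43.2 FPKM in CON and at 36.9, 37.8 and 36.5 FPKM in 4H (log2 fold change -0.28, limma adjusted p = 0.000628). Tcf4 was at 14.2, 13.6 and 14.2 FPKM in CON and at 11.8, 10.8 and 10.7 FPKM in 4H (-0.32, limma adjusted p = 0.00198). Tcf12, the gene of HEB, was at 36.2, 33.9 and 35.0 FPKM in CON and at 33.2, 31.3 and 31.6 FPKM in 4H, and its log2 fold change was -0.13 (limma adjusted p = 0.0369). The call of Tcf12 was lost without replicate 1 (adjusted p = 0.115) or 3 (0.0875) of CON and without replicate 2 (0.109) or 3 (0.0953) of 4H, and its adjusted p reached 0.118 over all alternatives. The summed ID transcripts stood at 0.913, 0.872 and 0.995 times the summed E protein transcripts in the CON libraries. In the 4H libraries they stood at 2.13, 2.15 and 2.45 times. The difference of the log2 ratio was 1.27 (two-sided exact permutation test, p = 0.1, adjusted p = 0.1 over the 4 ratios compared), and 0.1 is the smallest p that this design allows. The same p holds for each of the other 3 ratios.

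**Figure D2:**
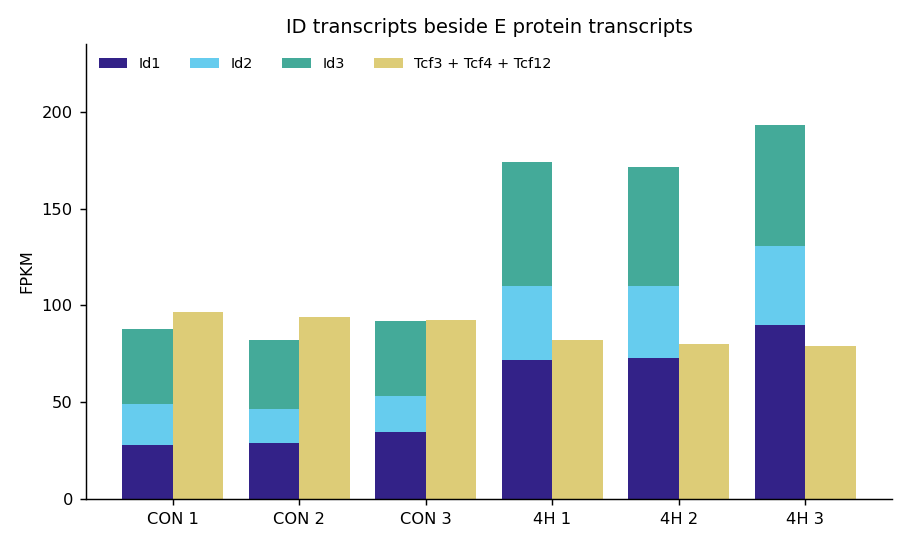
Stacked FPKM of Id1, Id2 and Id3 in each library (left bars) beside the summed FPKM of the E protein genes Tcf3, Tcf4 and Tcf12 (right bars), and Id4 is too low to be drawn. The ID bars are at or below the E protein bars in the 3 CON libraries and at more than 2.1 times their height in the 3 4H libraries.

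The myogenic partners moved in both directions. Myod1, the myogenic factor that pairs with E proteins, rose from 5.37, 4.48 and 5.55 FPKM to 18.5, 17.4 and 18.8 FPKM, by 1.74 on the log2 scale (standard error 0.08, limma adjusted p = 1.56e-06). Myf5, the myogenic factor of early myoblasts, fell from 16.8, 15.3 and 15.3 FPKM to 8.75, 10.998 and 9.71 FPKM (-0.67, standard error 0.08, limma adjusted p = 0.000347). Myog, the factor of the onset of differentiation, stayed at or below 0.281 FPKM in all 6 libraries and was not tested, like Myf6. Of the 7 genes on the list of ID partners, 5 were tested, and 1 rose and 4 fell, beside 22.6% and 24.1% of all genes tested. Myod1, Myf5 and Myog also stand on the marker lists above.

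Among the 9 genes tested, Inhba had the largest log2 fold change. It encodes the βA chain, which pairs with itself to form activin A or with the inhibin α chain to form inhibin A. Its FPKM was 19.7, 19.4 and 18.6 in the CON libraries and 53.7, 54.8 and 60.7 in the 4H libraries. The CON libraries lay close together, and 4H replicate 3 was again the highest. The log2 fold change was 1.53 (standard error 0.05, limma adjusted p = 3.43e-07), and it stayed between 1.47 and 1.58 over all alternatives. Inhba lies at chr13:16011851-16031621 on the plus strand, and no other annotated gene shares its exons. Among the other subunits, Inhbb, the gene of the βB chain of activin B, rose from 0.457, 0.494 and 0.424 FPKM to 1.37, 1.16 and 1.34 FPKM (log2 fold change 0.90, limma adjusted p = 0.000546). The CON mean of Inhbb, 0.458 FPKM, lay below the filter, so Inhbb was tested only through its 4H level and not with the filter at 1 FPKM. Its log2 fold change was 1.31 with a pseudocount of 0.1 and 1.21 after rescaling to TPM, past the fold threshold. Inha, the gene of the α chain that turns activins into inhibins, was at 1.07 to 1.55 FPKM in CON and at 1.21 to 1.47 FPKM in 4H (limma adjusted p = 0.909). The 95% confidence interval of its log2 fold change was -0.34 to 0.29.

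The 250 bases before the RefSeq start of Inhba, on the plus strand of chr13:16011601-16011850, are shown because this gene had the largest log2 fold change of the 9 tested. Capitals mark TATAAA, the core promoter motif, which was found in 12.37% of all windows.
Inhba: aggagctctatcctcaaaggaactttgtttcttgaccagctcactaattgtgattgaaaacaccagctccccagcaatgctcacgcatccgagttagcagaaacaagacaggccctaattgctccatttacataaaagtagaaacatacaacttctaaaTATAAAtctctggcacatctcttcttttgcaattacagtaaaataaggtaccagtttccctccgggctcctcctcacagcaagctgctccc
This window holds 43.2% G and C, below the median of 52.4% over all windows. It held none of the other motifs searched, which were GGCGCC, the SMAD core CAGAC, the cAMP response element TGACGTCA (1.55% of all windows), the AP-1 site TGANTCA (6.75%), the TEAD site GGAATG (12.64%) and the CArG box of SRF (1.47%).

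Bmp4 was the only BMP ligand gene tested. It encodes a ligand that signals through the SMAD1/5/9 branch. It was at 7.60, 7.69 and 7.55 FPKM in the CON libraries and, after stretch, at 7.04, 6.35 and 5.96 FPKM. The CON libraries lay close together, the 4H libraries were spread more widely, and the groups did not overlap. The log2 fold change was -0.23 (standard error 0.07, limma adjusted p = 0.0328). This call was lost without any of the CON libraries (adjusted p = 0.0760, 0.0822 and 0.0724 for replicates 1 to 3), without replicate 2 (0.0809) or 3 (0.0986) of 4H, with no filter (0.0531) and after rescaling to TPM (0.0670), and with the replicate number as a block (0.0532). The alternatives gave adjusted p-values between 0.0146 and 0.0986. Gm15217 shares exon positions with Bmp4 on the other strand. The other 11 BMP ligand genes on the list all stayed below the filter, with a highest value of 0.433 FPKM for Bmp6 in CON replicate 3, and 3 of them (Bmp8b, Gdf5 and Gdf6) were listed at 0 in all libraries.

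Grem1 was by far the most abundant of the 10 genes and fell. It encodes gremlin-1, a secreted antagonist that binds BMP2, BMP4 and BMP7. Its FPKM was 467.5, 456.4 and 460.3 in the CON libraries and 308.2, 311.3 and 317.8 in the 4H libraries, above 99.3% and 98.8% of the genes tested. Within each group the libraries differed by far less than the groups did. The log2 fold change was -0.56 (standard error 0.02, limma adjusted p = 1.08e-06), and it stayed between -0.57 and -0.51 over all alternatives. The fall did not reach the fold threshold. The ratio of Grem1 to Bmp4 was 61.5, 59.3 and 61.0 in the CON libraries and 43.8, 49.1 and 53.3 in the 4H libraries, a difference of -0.32 on the log2 scale with no overlap of the groups. Grem1 lies at chr2:113746164-113758646 on the minus strand.

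The 250 bases before the RefSeq start of Grem1, the minus strand of chr2:113758649-113758898, are shown as those of the most abundant gene and of the larger fall. Capitals mark CAGAC and GGCGCC.
Grem1: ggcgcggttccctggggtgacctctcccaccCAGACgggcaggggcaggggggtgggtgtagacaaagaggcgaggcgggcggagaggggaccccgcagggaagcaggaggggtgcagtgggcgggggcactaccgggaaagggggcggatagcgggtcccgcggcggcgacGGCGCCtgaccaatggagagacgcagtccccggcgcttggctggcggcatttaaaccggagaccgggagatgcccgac
With 72.0% G and C this window is far richer in these bases than that of Inhba.

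Other antagonists moved in both directions. Of the 17 genes on the list of BMP and activin antagonists, 9 were tested, of which 5 rose (Fst, Nbl1, Bmper and Fstl3 among them), 1 fell (Twsg1) and 3 did not pass (Chrd, Dand5 and Crim1). Of all genes tested, 22.6% rose and 24.1% fell at the same adjusted p. Fst, the gene of follistatin, which binds activins with high affinity, rose from 1.27, 0.653 and 0.797 FPKM to 5.71, 5.49 and 5.11 FPKM (log2 fold change 2.10, standard error 0.16, limma adjusted p = 1.85e-05). Fst remained far below Inhba in level. The ratio of Fst to Inhba was 0.0644, 0.0336 and 0.0429 in the CON libraries and 0.1064, 0.1002 and 0.0841 in the 4H libraries, a difference of 1.09 on the log2 scale, which was 0.58 after 0.5 FPKM was added to both genes. Fst shares exon positions with Gm47040 on the other strand.

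**Figure D3:**
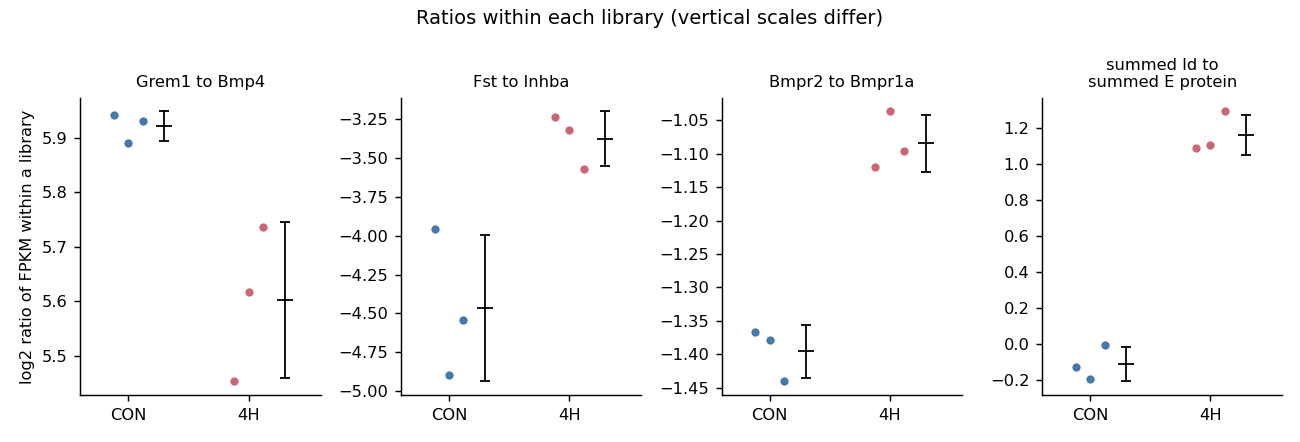
Log2 ratio of FPKM within each library for Grem1 to Bmp4, Fst to Inhba, Bmpr2 to Bmpr1a and summed ID to summed E protein transcripts, with vertical scales that differ. Points are libraries, and black bars give the mean and SD of 3 libraries. The groups do not overlap in any of the 4 ratios, of which the first is lower and the others are higher in the 4H group.

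None of the receptor transcripts tested reached the fold threshold. Bmpr1a, a type I receptor of BMPs, was at 23.7, 24.9 and 24.8 FPKM in CON and at 24.6, 23.2 and 25.5 FPKM in 4H. The groups overlapped, and the log2 fold change was -0.00151 with a 95% confidence interval of -0.11 to 0.11 (limma adjusted p = 0.983). Bmpr2, the type II receptor of BMPs, was at 9.19, 9.57 and 9.13 FPKM in CON and at 11.3, 11.3 and 12.0 FPKM in 4H. All stretched libraries were higher, and the log2 fold change was 0.30 (standard error 0.05, limma adjusted p = 0.00230). The ratio of Bmpr2 to Bmpr1a was 0.388, 0.385 and 0.368 in the CON libraries and 0.460, 0.488 and 0.468 in the 4H libraries, a difference of 0.31 on the log2 scale. Gm17110 shares exon positions with Bmpr1a on the other strand. Bmpr2 lies at chr1:59763400-59879014 on the plus strand and Bmpr1a at chr14:34410734-34503341 on the minus strand.

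Of the 5 other type I receptor genes on the list, 3 were tested, 2 rose and Acvr1b did not pass. This count and that of the co-receptors below stand beside 22.6% of all genes tested that rose and 24.1% that fell. Acvr1, the gene of the BMP type I receptor ALK2, rose from 21.9, 21.8 and 20.9 FPKM to 32.7, 30.4 and 32.8 FPKM (log2 fold change 0.56, standard error 0.05, limma adjusted p = 3.05e-05). It was thus below Bmpr1a in every CON library and above it in every 4H library. Bmpr1b rose from 2.33, 3.34 and 2.98 FPKM to 3.72, 4.45 and 4.50 FPKM (0.49, limma adjusted p = 0.0153), a call that was lost without 4H replicate 3 (adjusted p = 0.0517). Neither of the activin type II receptor genes passed, with Acvr2a at 5.60 to 5.97 FPKM in CON and 5.47 to 5.52 FPKM in 4H (limma adjusted p = 0.507) and Acvr2b at 0.559 to 0.709 and 0.517 to 0.884 FPKM (0.868). Of the 5 co-receptor genes in the table, 4 were tested, 1 rose (Rgmb), 2 fell (Rgma and Neo1) and Eng did not pass, and Tdgf1 was not analysed here. Rgmb, a BMP co-receptor of the repulsive guidance family, rose from 3.29, 3.21 and 3.53 FPKM to 5.60, 5.51 and 6.20 FPKM (0.71, limma adjusted p = 0.000182). Its relative Rgma fell from 3.26, 2.85 and 2.40 FPKM to 1.67, 2.23 and 1.52 FPKM (-0.53, limma adjusted p = 0.0175), a call that was lost without CON replicate 1 (adjusted p = 0.0631) or 4H replicate 3 (0.0569). A730056A06Rik shares exon positions with Rgma on the other strand.

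Bmp1 is no ligand but a tolloid proteinase, which cleaves procollagens and also frees BMPs from chordin. It was at 39.4, 38.2 and 37.97 FPKM in CON and at 41.6, 43.8 and 42.2 FPKM in 4H. The groups did not overlap, and the rise was small, at 0.14 on the log2 scale (standard error 0.04, limma adjusted p = 0.0130). Bmp1 lies at chr14:70474558-70520234 on the minus strand. The related proteinase Tll1 rose from 1.00, 1.11 and 0.759 FPKM to 4.84, 3.97 and 5.08 FPKM (log2 fold change 1.82, standard error 0.13, limma adjusted p = 1.52e-05), to a level still well below Bmp1. Pcolce2, an enhancer of procollagen cleavage, rose from 19.4, 19.2 and 17.9 FPKM to 31.5, 30.9 and 32.0 FPKM (0.73, limma adjusted p = 6.06e-06), while Pcolce fell from 192.4, 200.9 and 198.4 FPKM to 158.5, 160.6 and 153.1 FPKM (-0.32, limma adjusted p = 6.75e-05). Pcolce shares exon positions with Fbxo24 on the same strand and with Gm36266 on the other.

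Downstream of the receptors, 6 SMAD genes were tested, and 3 rose (Smad7, Smad9 and Smad5), 1 fell (Smad4, the partner shared by both branches) and 2 did not pass (Smad1 and Smad6). This count and that of the BMP targets below stand beside 22.6% of all genes tested that rose and 24.1% that fell. Smad7, an inhibitor of both branches, rose from 9.54, 9.56 and 10.1 FPKM to 19.4, 19.7 and 21.0 FPKM (log2 fold change 1.01, limma adjusted p = 2.56e-06). Its log2 fold change was 0.97 without 4H replicate 3 and 0.99 without CON replicate 1 or CON replicate 2, and 0.97 with a pseudocount of 1, just under the fold threshold. Smad9 rose from 0.980, 1.07 and 1.04 FPKM to 1.69, 1.69 and 1.46 FPKM (0.47, limma adjusted p = 0.00868). Smad6, the inhibitor more specific to the BMP branch, was at 1.72 to 2.18 FPKM in CON and 1.78 to 2.32 FPKM in 4H, with groups that overlapped (limma adjusted p = 0.442). Of 10 further genes known as BMP targets, 6 were tested, 3 rose (Hey1, Hes1 and Runx2) and none fell. Hes1, a repressor that is also a Notch target, rose from 5.98, 6.47 and 4.71 FPKM to 9.85, 10.1 and 11.2 FPKM (0.82, limma adjusted p = 0.000533). Hey1, a repressor of the same family, rose from 0.671, 0.716 and 0.450 FPKM to 1.53, 1.44 and 1.38 FPKM (0.82, limma adjusted p = 0.00158), and its log2 fold change was 1.14 with a pseudocount of 0.1 and 1.07 after rescaling to TPM. Msx1, Atoh8 and Gata2 did not pass (limma adjusted p = 0.0956, 0.353 and 0.115), and Dlx5, Sp7, Alpl and Msx2 were below the filter. Over all 10 lists, 40 of 72 genes were tested, 18 rose (22.6% of all genes tested rose), 9 fell (24.1% of all fell) and 13 did not pass, with a median log2 fold change of 0.20. Both thresholds were met by 5 of them (3.88% of all genes tested), with Fst, Tll1, Myod1 and Smad7 among these, all higher in the 4H group. Smad5 shares exon positions with Gm27301 on the same strand, and Bmp6, Acvr2a, Eng, Chrd, Crim1, Fstl3 and Runx2 share some with a gene on the other strand.

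**Figure D4:**
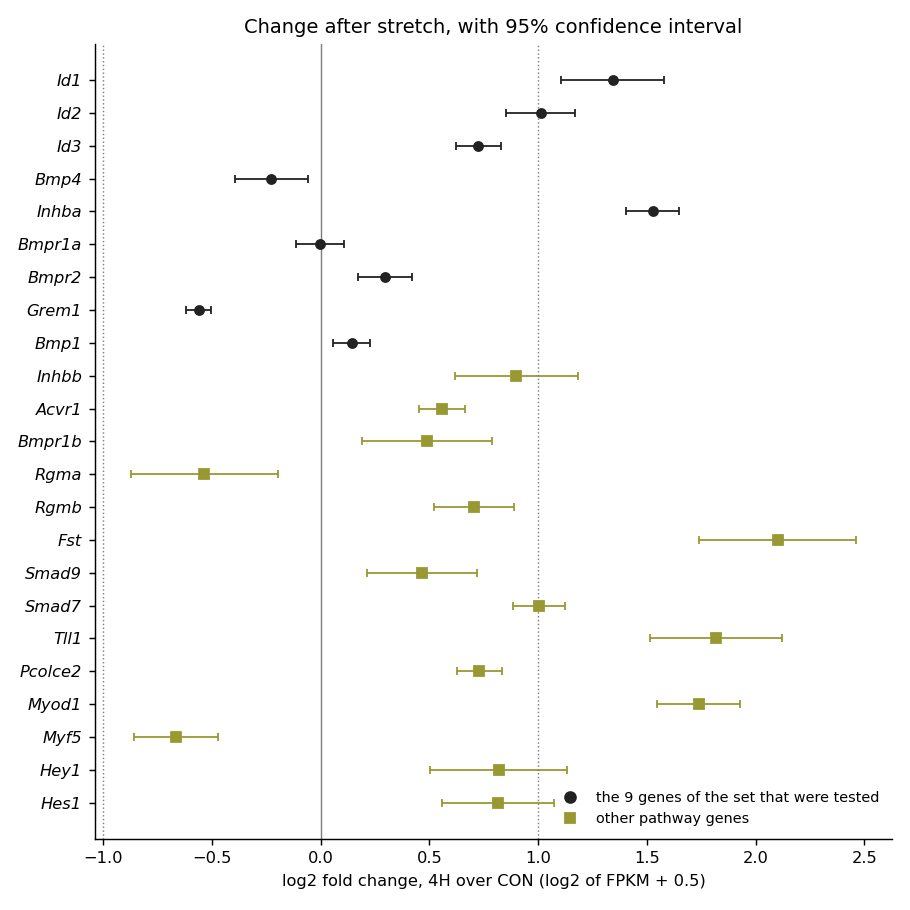
Log2 fold change of 4H over CON from limma with its 95% confidence interval, for the 9 genes tested (circles) and for 14 other genes of the pathway (squares). Dotted lines mark the fold threshold of 1 in either direction. Inhba and Id1 lie above it with their whole intervals, Id2 lies on it, and the interval of Bmpr1a includes 0.

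The order of the 10 genes by level changed with stretch. In the CON group Grem1 was followed by Bmp1, Id3, Id1, Bmpr1a, Inhba, Id2, Bmpr2, Bmp4 and Id4. The ranges of Bmp1 and Id3 overlapped in that group, as did those of Inhba and Id2, so neither pair can be ordered. In the 4H group Grem1 was followed by Id1, Id3, Inhba, Bmp1, Id2, Bmpr1a, Bmpr2, Bmp4 and Id4, and the ranges of neighbours in that order did not overlap.

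**Figure D5:**
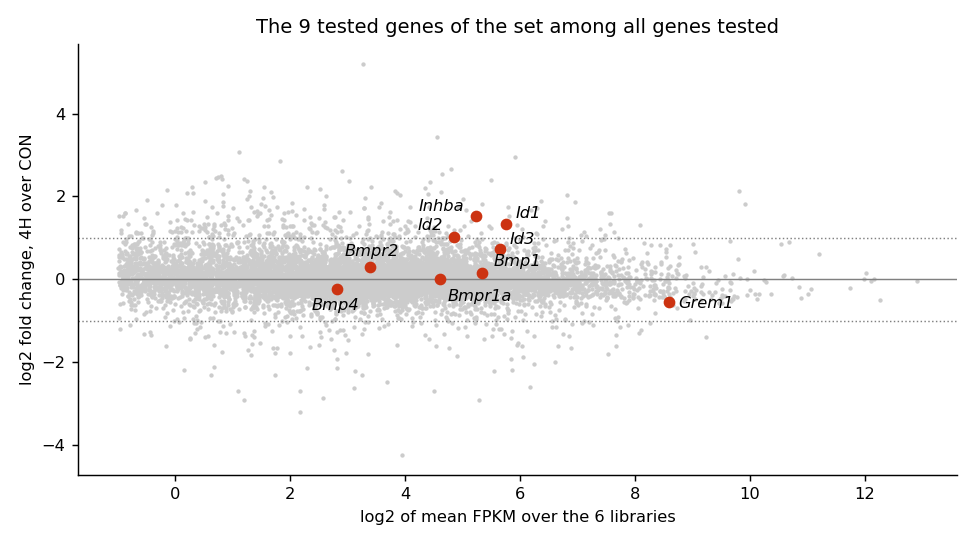
Log2 fold change of 4H over CON against the log2 of mean FPKM over the 6 libraries, for the 11593 genes tested (grey) and for the 9 tested genes of the set (red). Dotted lines mark a log2 fold change of 1 in either direction. Inhba, Id1 and Id2 lie at or above the upper line, Grem1 lies at high FPKM below 0, and Bmpr1a lies at 0.

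Some genes outside the pathway had nearly the same profile over the 6 libraries. Profiles were compared among the 8523 genes with a symbol and a mean of at least 5 FPKM, as the root mean square distance of log2(FPKM + 0.5) after the CON mean was subtracted. Hspa1a and Smim36 reached that mean only through the 4H group. Nearest to Id1 were Hspa1a (distance 0.070), Chst11 (0.092) and Mmd (0.110). Hspa1a, the gene of an inducible heat shock chaperone, was at 3.04, 3.18 and 3.32 FPKM in CON and at 7.95, 7.87 and 10.0 FPKM in 4H, with the same 4H replicate 3 highest as in Id1. Nearest to Inhba were Smim36 (0.070), Phlda1 (0.078) and Tm4sf1 (0.078), and nearest to Bmp4 were Pcmtd1 (0.020), Sh3gl1 (0.022) and Gemin5 (0.027). The distances are a description over 6 libraries, without a test.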

How the data were processed

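RNA-seq of C2C12 myoblasts was taken from 3 CON and 3 4H libraries, grouped by the treatment labels. The authors deposited 1 table of FPKM values, normalized by the authors for transcript length and mapped fragments, with 1 column per library. The build mm10 is named in the submitters' processing notes. Aligner, counting tool, annotation and the use of strand in counting: not given in the sources used here. Per the labels the libraries were strand-specific. FPKM is not a count, so the DESeq2 test of the study was not run, and depth and counting error are unknown.

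On log2(FPKM + 0.5), CON and 4H were compared by limma 3.58.1 (R 4.3.3), using lmFit, then eBayes with its trend and no replicate block, for genes whose mean reached 0.5 FPKM. Benjamini-Hochberg adjustment covered all of these genes. The fit was also run on simulated data with independent noise and far fewer changed genes than were called here. That run gives no measure of error for these data. Ratios within a library were compared by two-sided exact permutation tests in SciPy 1.17.1. The members, lists, motifs and tests were chosen with earlier results of these data known. Named in the text are the 10 members, pathway genes past both thresholds, the 2 largest changes past the adjusted p in each list and the 3 nearest profiles of Id1, Bmp4 and Inhba. Genes named outside this rule are the E protein genes of a ratio, list members named beside a count of their list, Pcolce and the cell type markers, chosen after their values were seen. A gene that this rule names is not reported here. Positions, exon overlap and stretches of 75 bases shared with other genes came from GENCODE M21 (GRCm38). Of the 10 members, only Grem1 had such stretches, 0.741% of its transcript. Alternatives were pseudocounts of 0.1 and 1, no filter, a filter at 1 FPKM, limma without the trend, a replicate block, TPM, quantile normalization, scaling by median of ratios and each library left out. Tables and plots used Python 3.11.15, pandas 2.3.3 and matplotlib 3.10.9.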

Additional observations from a re-analysis of the deposited data

How the results depend on the processing

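Across the 15 alternatives, 7 or 8 members passed the adjusted p (8 as reported), 2 or 3 passed both thresholds (3), and 22 to 29 of the pathway genes passed the adjusted p (27). Bmp4 was the member whose call was lost, and Id2 the one that moved across the fold threshold. With no filter the 8 members include Id4 and not Bmp4, so they are not the same genes as the 8 reported. The number of all genes past both thresholds was 450, and 703 after rescaling to TPM. With 1 library left out it was 449 to 467, and all genes past the adjusted p numbered 4638 to 4882, beside 5409. Of 539 values of single genes, 511 kept their direction and their side of the adjusted p, 24 kept their direction only and 4 reversed. All 4 were of Bmpr1a, whose log2 fold change of -0.00151 became 0.034 after rescaling to TPM and 0.0081 to 0.035 without CON replicate 2, CON replicate 3 or 4H replicate 2, and it was -0.033 to 0.035 over all libraries left out in turn. The cause was not tested for any of these. Id4 could be tested only without a filter (log2 fold change 0.26, adjusted p = 0.0160), and a fitted fold change of a gene listed at 0 depends on the pseudocount. The 4 ratios were recomputed with 0.5 FPKM added and with each library left out, and kept their direction in these 7 alternatives. With 1 library left out, their p in the exact permutation test was 0.2, the smallest that the remaining libraries allow, so it measures no weakening.

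Libraries with the same replicate number in the sample descriptions share only a number. The correlation of their deviations from the group means over the genes tested was 0.025, -0.093 and -0.13 for replicates 1 to 3. The numbers in the library names pair differently, C1 with 4H1 (0.025) and C3 with 4H3 (0.18, the highest of the 9 possible pairs), and leave C2 and 4H4 without a partner, so no block was fitted by them. With the replicate number of the descriptions as a block, 4964 genes passed the adjusted p and 452 both thresholds, and 7 members and 26 pathway genes passed the adjusted p.

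FPKM holds no depth, so the low values of Id4, Inhbb and Hey1 carry an unknown counting error, and 3 libraries per group limit every test.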
